A study of Sus scrofa with 3 samples.

Results

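The mitochondrial ribosomal protein genes were followed in visceral adipose tissue of miniature pigs. They were taken as the genes of type mRNA whose deposited name was MRPL or MRPS followed by a number and at most 1 further letter. This gave 62 of 22826 mRNA genes, of which 38 were named for the large and 24 for the small subunit of the ribosome. The genes were also split by the numbering that the family inherits from bacteria. MRPL numbers up to 36 and MRPS numbers up to 21, with MRPL47 added as the known counterpart of bacterial L29, made a bacterial class of 37 genes. The other 25 made a mitochondrial class. This split rests on numbers only, so a gene of the mitochondrial class can still have a bacterial counterpart. The choice rested on names only, and 60 of the 62 genes had a value above 0 in every library.

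Mitochondria keep a ribosome of their own, which translates only the few mRNAs encoded in mitochondrial DNA. Those mRNAs code for core subunits of the respiratory chain and of ATP synthase, and the rRNAs of this ribosome are also mitochondrially encoded. All of its proteins are encoded in the nucleus, made in the cytosol and imported. In white fat cells, mitochondria supply ATP and the citrate from which fatty acids are built.

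The tissue was retroperitoneal fat of male Wuzhishan miniature pigs, a small Chinese breed. All groups received the same high-fat and high-cholesterol (HFC) diet. The group IM holds intact pigs, CM holds castrated pigs, and CMT holds castrated pigs that were given testosterone propionate weekly. Each group's RNA was mixed before sequencing, with 4 to 6 pigs per pool by the labels and 4 by the methods. Each group is therefore 1 library, no difference has a replicate check, and differences between pigs are hidden in the pool. The comparisons ask how the mRNA of the mitochondrial ribosome differed after castration and after testosterone replacement under this diet.

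Levels are given in UQRPKM, which is the number of reads per length of gene, scaled by the library's upper quartile of reads in place of its total. Levels and reads given 3 in a row follow the order IM, CM and CMT. Whole reads were recovered from the values, and IM held 16611931 reads on all genes, CM 15561124 and CMT 15106608. Differences are log2 ratios of UQRPKM without a pseudocount, and a gene is called changed at a fold of 1.5 or more, a log2 ratio of 0.58, with at least 1 UQRPKM in both libraries. Each ratio has an exact Clopper-Pearson 95% interval from the reads, and each level an exact Poisson 95% interval. These intervals cover counting error only. In whole tissue, fewer cells of a type and less RNA per cell cannot be told apart.

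The libraries also differed in genes of other tissues. The 14 adipocyte markers, of which CIDEA was listed at 0 in all libraries, summed to 173781, 169098 and 137542 UQRPKM. The 16 liver markers summed to 5861, 15355 and 5366 UQRPKM, of which APOA1 held 2539, 2339 and 1714 and RBP4 held 3291, 4246 and 3611. The median liver marker was at 1.06, 316.7 and 1.82 UQRPKM, and ALB, the gene of serum albumin, stood at 2.61, 2910 and 4.00 UQRPKM. Of the liver markers 7 were listed at 0 in the IM library, 7 in the CMT library and 0 in the CM library. The 18 skeletal muscle markers summed to 174, 141 and 7890 UQRPKM, with ACTA1 at 49.8, 39.8 and 3589 UQRPKM. CKM, MB, NEB and TNNT3 of that list were at 0 in all libraries. The 7 mesothelial markers, of which LRRN4 was at 0 in all libraries, summed to 122, 205 and 495 UQRPKM. These genes move with the CM and the CMT library, and their part in the results below was not tested.

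The genes of the mitochondrial ribosome were expressed in the upper part of the range of all mRNA genes. The median level was 336.8, 377.4 and 375.1 UQRPKM. At these levels the median gene of the family stood at the 84.4, 86.3 and 86.6 percentile of the mRNA genes above 0, respectively. Summed over the family, the level was 25074, 25907 and 25277 UQRPKM. Counted in reads, the family held 0.260%, 0.275% and 0.276% of the reads on mRNA genes.

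Although the ribosome holds these proteins in a fixed complex, their mRNA levels were not equal. Mean levels over the libraries spanned 25.1-fold from lowest to highest, with 16 genes below 200 UQRPKM, 37 from 200 to 800 and 7 at 800 or more. The order of the genes was nearly the same in every library, with Spearman's rho of 0.985 between CM and IM, 0.960 between CMT and CM, and 0.957 between CMT and IM over 60 genes. These are descriptions across genes, which share gene length and base composition. Of the 10 highest genes 7 were shared by all libraries, and of the 10 lowest 6. Level did not go with recovered gene length, with a rho of -0.044.

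The 5 highest mean levels belonged to MRPL17, MRPL28, MRPL24, MRPL40 and MRPS26. MRPL17, a protein of the large subunit with a bacterial counterpart near the exit tunnel of the new protein, stood at 1397, 1229 and 1215 UQRPKM. MRPL28 stood at 1202, 1299 and 1230 UQRPKM. MRPL24, another protein with a bacterial counterpart around the tunnel, stood at 987, 973 and 932 UQRPKM. None of them was changed in any comparison, but MRPL17 was higher in IM. Its log2 ratio was -0.18 (95% interval -0.29 to -0.08) in CM versus IM, and -0.20 (-0.30 to -0.10) in CMT versus IM. MRPL40, which sits in the central protuberance of the large subunit, stood at 920, 1005 and 897 UQRPKM. MRPS26, a small subunit protein specific to mitochondria, stood at 952, 892 and 922 UQRPKM.

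The 5 lowest mean levels belonged to MRPS23, MRPS35, MRPL22, MRPL47 and MRPL50. MRPS35 stood at 59.3, 63.2 and 56.0 UQRPKM on 188, 191 and 174 reads. MRPL22, which lines the exit tunnel, stood at 66.6, 90.9 and 95.2 UQRPKM on only 40, 52 and 56 reads. MRPL50 stood at 108, 119 and 119 UQRPKM. MRPS23 and MRPL47, both among the genes that changed, are described with them. Low levels did not always mean few reads, since the reads also depend on gene length. The lowest count of any of the 60 genes in any library was 30, and the median was 536 reads.

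**Figure D1:**
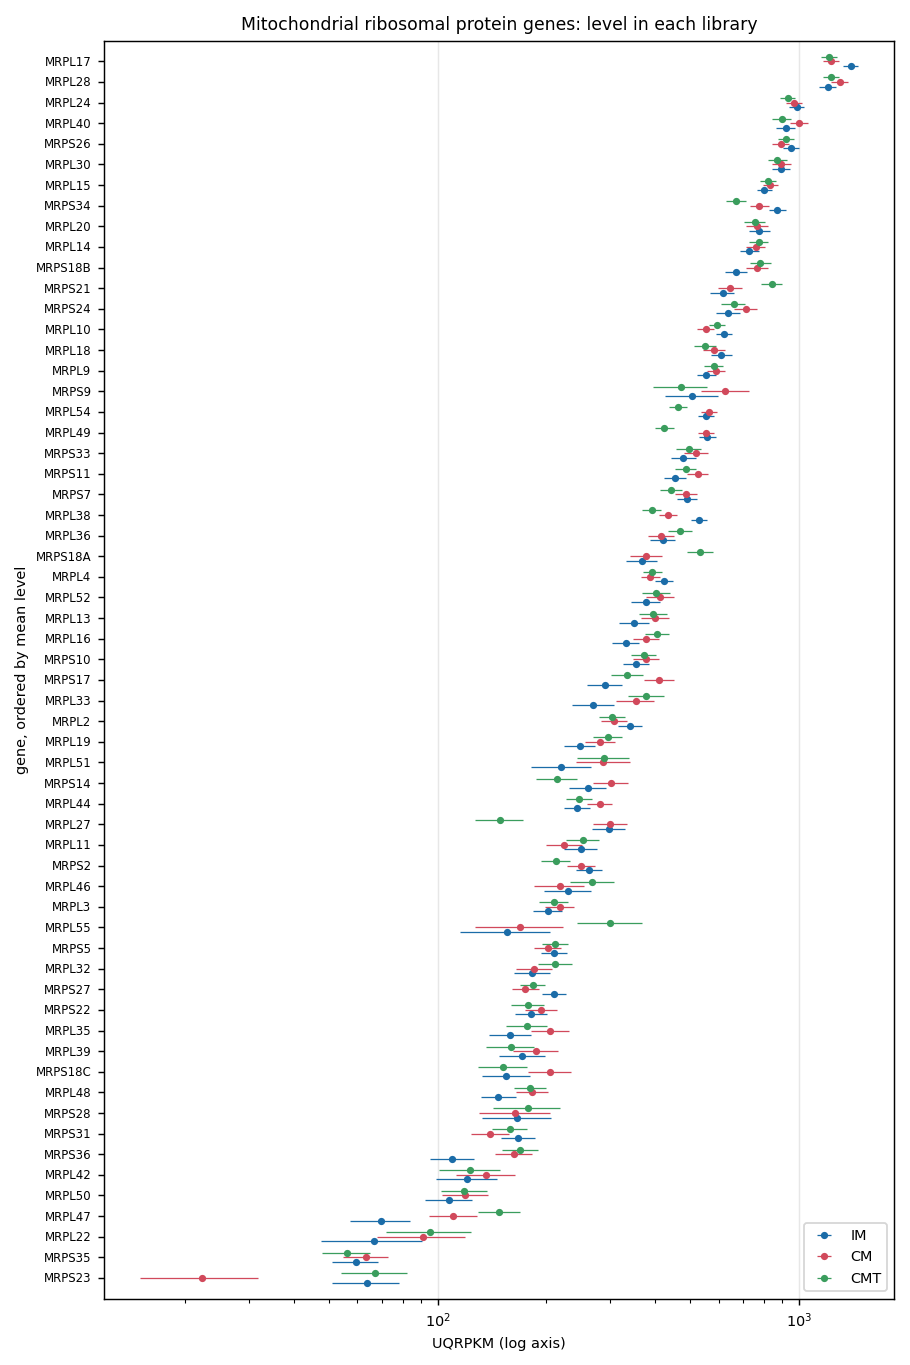
UQRPKM (log axis) of the 60 mitochondrial ribosomal protein genes above 0 in the IM, CM and CMT libraries, with 1 point per gene and library. Most genes have 3 points close together, with a median ratio of highest to lowest library of 1.16, while the levels of different genes span 25.1-fold.

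The genes of the mitochondrial class, as split by number, had lower levels than those of the bacterial class. The median of the mean levels was 223.6 UQRPKM over 24 genes and 392.1 over 36 genes. Large and small subunit genes were closer, at 371.8 and 345.3 UQRPKM over 37 and 23 genes. These differences are descriptions of the levels, and no test of them was made.

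MRPL37 and MRPS15 were listed at 0 in all libraries. This does not show a lack of expression, because 7 of 67 genes of the cytosolic ribosome were listed at 0 in all libraries too. The reference table of the pig at RefSeq, which uses the later build Sscrofa11.1, has 77 MRPL and MRPS symbols. All 62 genes matched it, 8 more were found in the deposited values under LOC numbers by their gene ID, and 7 were not matched.

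The genes under LOC numbers were kept apart from the family. MRPL12, MRPL45 and MRPS30 were listed at 0 in all libraries. MRPL12 binds the translation factors at the stalk of the large subunit, and MRPL45 anchors the ribosome to the inner membrane. MRPL53 stood at 139, 174 and 198 UQRPKM in IM, CM and CMT, which gave a log2 ratio of 0.51 (95% interval 0.28 to 0.73) in CMT versus IM. MRPL1 stood at 48.3, 54.7 and 44.6 UQRPKM, MRPS25 at 236, 270 and 256, and MRPL43 at 444, 516 and 444. All 4 of these genes were within 1.5-fold in every comparison. MRPS12, which is not classed as mRNA in the deposited values, stood at 29.2, 17.9 and 19.9 UQRPKM on 12, 7 and 8 reads. Between CM and IM its log2 ratio was -0.71, past the threshold, with an interval from -2.29 to 0.75.

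The family moved little between libraries. For 37 of 60 genes the highest library was less than 1.2 times the lowest, and for 55 it was less than 1.5 times. CM was the highest library for 26 genes, CMT for 19 and IM for 15, while IM was the lowest for 29, CMT for 20 and CM for 11. These counts over the libraries have no background share here.

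In CM versus IM, which compares castrated with intact pigs, 1 gene of 60 was changed to a higher level, MRPL47, and 1 to a lower level, MRPS23. Each is 1.67% of the genes, where 8.38% of all mRNA genes tested were changed to a higher level and 10.4% to a lower level. The median log2 ratio of the family was 0.09, with quartiles at -0.03 and 0.19, while that of all mRNA genes was -0.06, with quartiles at -0.30 and 0.19. The ratio was above 0 for 39 of 60 genes, and for 6108 of 14123 mRNA genes tested. Within 1.2-fold were 48 of 60 genes, or 80%, against 51.8% of all mRNA genes.

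The family has many reads per gene, and genes with few reads spread more by counting alone. Every gene of the family above 0 had at least 90 reads over each pair of libraries, so the background was also taken over mRNA genes with that minimum. Changed genes were then 9.93% of the background in either direction, against 2 of 60, or 3.33%, of the family. Within 1.2-fold were 59.9% of that background. The minimum of 90 reads, here and below, is far under the family's median of 536 reads per gene and library. Depth was therefore not matched between the family and this background. Asking in addition for an adjusted p under 0.05 in an exact binomial test on the reads, with Benjamini-Hochberg adjustment over all mRNA genes with reads, called 10.1% of all mRNA genes and the same 2 genes of the family. The exact test compares the libraries, not the conditions.

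Small differences were also measured in CM versus IM. The 95% interval of the log2 ratio lay wholly above 0 for 16 genes, wholly below 0 for 8, and included 0 for 36. Intervals were not counted over all mRNA genes, here or in the comparisons below, so these counts have no background share. Apart from MRPL47 and MRPS23, the 22 genes whose interval lay off 0 had ratios from -0.29 to 0.57. The interval of the median gene reached 0.175 to either side of its ratio, and smaller differences were not detectable at this depth for such a gene.

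In CMT versus CM, which compares testosterone replacement with castration alone, 2 of 60 genes were changed to a higher level, MRPS23 and MRPL55, and 1 to a lower level, MRPL27. These are 3.33% and 1.67% of the family, where 9.53% and 9.97% of all mRNA genes were changed in those directions. The median log2 ratio was -0.02 in the family and -0.02 in all mRNA genes. The quartiles were -0.15 and 0.07 in the family, narrower than -0.24 and 0.22 in all mRNA genes. The ratio was above 0 for 24 of 60 genes, and for 6670 of 14098 mRNA genes tested.

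Within 1.2-fold were 47 of 60 genes, or 78.3%, where all mRNA genes had 54.8% and those with at least 90 reads had 63.5%. Changed genes in either direction were 5% of the family, 10.9% of mRNA genes with at least 90 reads, and 10.6% of all mRNA genes with the exact binomial test added. That test called the same 3 genes of the family. The interval lay above 0 for 6 genes, below 0 for 12, and included 0 for 42.

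In CMT versus IM, which compares the replaced with the intact state, 3 of 60 genes were changed to a higher level, MRPL47, MRPL55 and MRPS36, and 1 to a lower level, MRPL27. These are 5% and 1.67% of the family, where 8.81% and 11.9% of all mRNA genes were changed in those directions. The median log2 ratio was 0.03, with quartiles at -0.09 and 0.18, while all mRNA genes had a median of -0.08 and quartiles at -0.33 and 0.19. The ratio was above 0 for 35 of 60 genes, and for 5938 of 14151 mRNA genes tested.

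Within 1.2-fold were 44 of 60 genes, or 73.3%, where all mRNA genes had 49.1% and those with at least 90 reads had 56.3%. Changed genes in either direction were 6.67% of the family, 12.2% of mRNA genes with at least 90 reads, and 11.9% of all mRNA genes with the exact binomial test added, which called the same 4 genes. The interval lay above 0 for 11 genes, below 0 for 11, and included 0 for 38. Each library enters a pair of the comparisons, so they are not independent of each other.

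**Figure D2:**
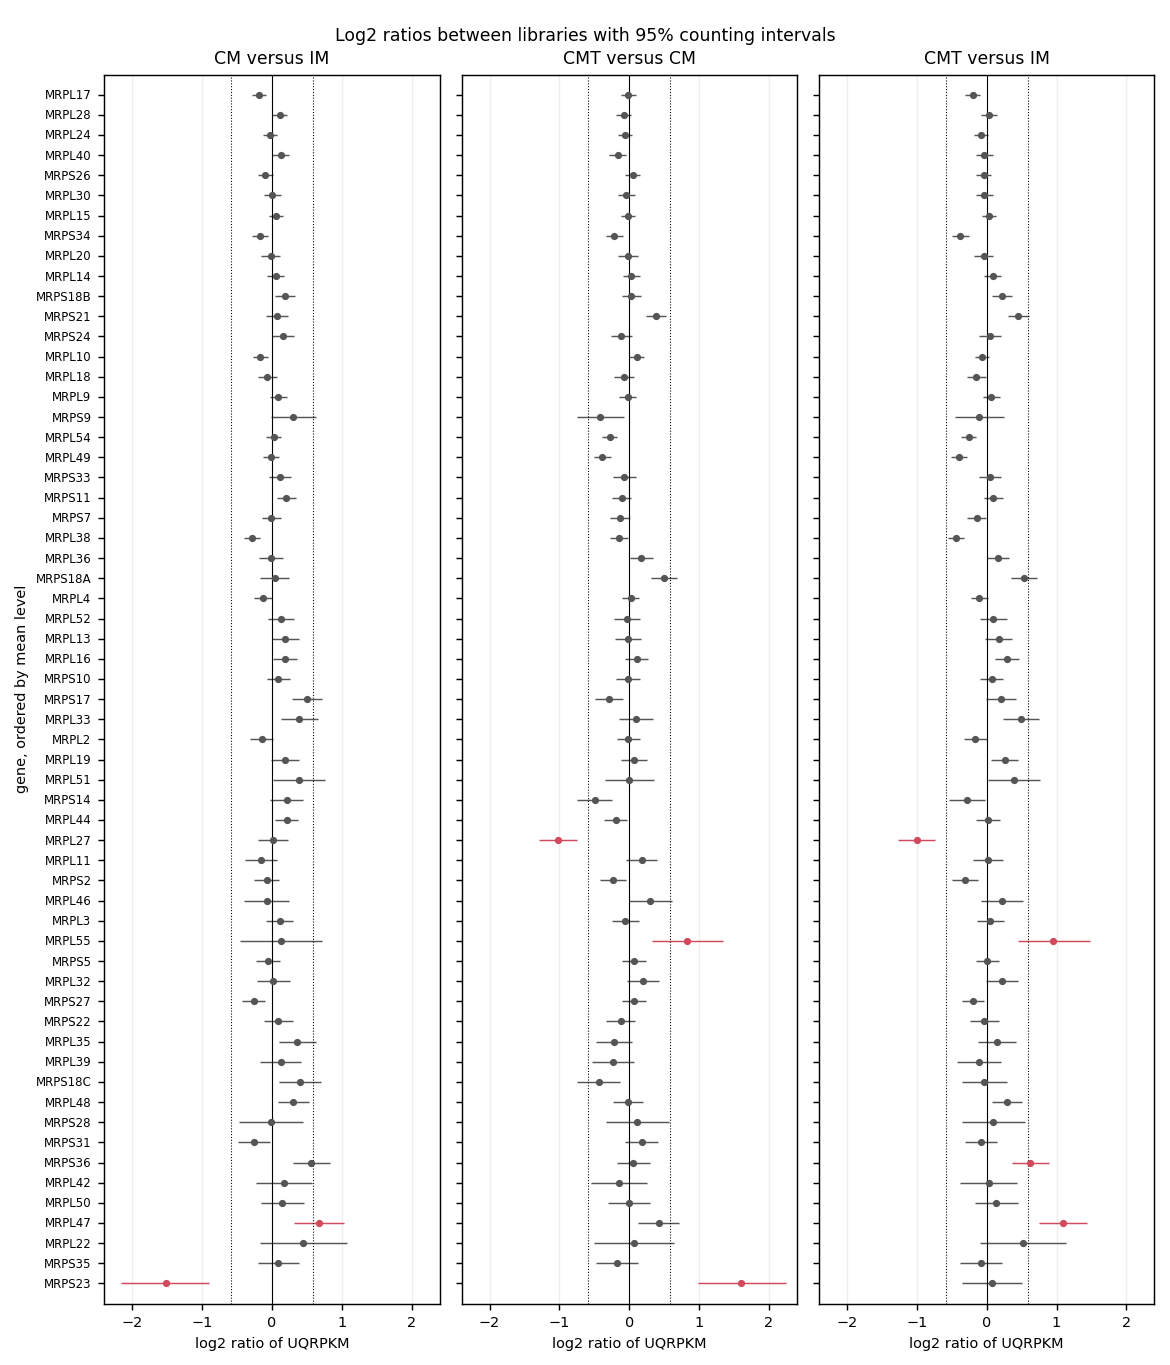
Log2 ratios of UQRPKM for the 60 genes of the family in each of the 3 comparisons, with the 1.5-fold thresholds. Most genes lie near 0, with medians of 0.09, -0.02 and 0.03, and 2, 3 and 4 genes lie past a threshold.

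The small medians depend on how the libraries are scaled. Here and below, 3 values given in a row for ratios or counts of changed genes follow the order of the comparisons above. When the libraries were scaled to equal reads on mRNA genes, every log2 ratio moved up by 0.06, 0.05 and 0.11. The median of the family was then 0.15, 0.03 and 0.15, so that its sign in CMT versus CM turned, as did that of all mRNA genes, from -0.02 to 0.03. MRPS36 joined the genes at a higher level in CM versus IM, giving 2 higher and 1 lower, as it did under the other 2 scalings tried. In CMT versus IM, MRPL22, MRPL33 and MRPS18A joined, giving 6 higher and 1 lower.

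MRPS23, a small subunit protein specific to mitochondria, had the greatest difference of the family. It stood at 63.6, 22.2 and 67.1 UQRPKM, on 90, 30 and 93 reads. The CM library was low, and its level interval of 15.0 to 31.7 UQRPKM did not overlap the intervals of 51.1 to 78.2 in IM and 54.1 to 82.1 in CMT. The log2 ratio was -1.52 (95% interval -2.16 to -0.91) in CM versus IM, and 1.59 (0.98 to 2.24) between CMT and CM. Between CMT and IM it was 0.08, with an interval from -0.36 to 0.51 that includes 0. The liver markers went the other way in CM, where 6 of 8 tested were changed to a higher level against IM, and their part in this value was not tested.

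MRPL47, the counterpart of the bacterial protein L29 at the mouth of the exit tunnel, stood at 69.7, 111 and 148 UQRPKM, on 109, 165 and 227 reads. Both castrated groups were above IM. The level intervals of 57.2 to 84.0 in IM and 94.4 to 128.9 in CM did not overlap, and that of CMT, 129.4 to 169 UQRPKM, began just above the end of that of CM. The log2 ratio was 0.67 (0.31 to 1.03) in CM versus IM, and 1.09 (0.75 to 1.43) between CMT and IM. In CMT versus CM it was 0.42 (0.12 to 0.72), which is not past the threshold. The summed mesothelial markers were in the same order, with 3 of 5 tested changed to a higher level in CM versus IM, and 4 higher and 1 lower in CMT versus IM. A further marker, short of the minimum of 1 UQRPKM, stood at 0.92 in IM and at 0 in CM and CMT. The part of the mesothelial markers in the values of MRPL47 and MRPS36 was not tested.

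MRPL27, whose bacterial counterpart reaches toward the peptidyl transferase centre where peptide bonds form, stood at 298, 300.2 and 149 UQRPKM, on 358, 344 and 175 reads. Here the CMT library was low, and the level intervals of IM and CM overlapped almost fully. The log2 ratio was 0.01 (-0.21 to 0.23) in CM versus IM, and -1.02 (-1.29 to -0.75) between CMT and CM. Between CMT and IM the fold was 0.499, with an interval of the log2 ratio from -1.27 to -0.74.

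MRPL55, a large subunit protein, stood at 155, 170 and 301 UQRPKM, on 50, 52 and 95 reads. The CMT library was high, with a level interval of 244 to 368 UQRPKM that did not overlap those of IM and CM. The log2 ratio was 0.13 (-0.46 to 0.72) between CM and IM, 0.83 (0.33 to 1.35) between CMT and CM, and 0.96 (0.45 to 1.48) between CMT and IM. Its recovered length of 216 bases is short, and the reads may be understated by a common factor, which would make these intervals too wide. In the same CMT library the skeletal muscle markers were high, with 13 of 13 tested changed to a higher level against CM, and the adipocyte markers had a median log2 ratio of -0.24 against CM. Their part in the values of MRPL27 and MRPL55 was not tested.

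MRPS36 carries a small subunit name, but its protein was later placed in the 2-oxoglutarate dehydrogenase complex of the citric acid cycle. It stood at 110, 163 and 169 UQRPKM, on 202, 285 and 305 reads. Both castrated groups were above IM, and their level intervals overlapped each other but not that of IM. The log2 ratio was 0.57 (0.30 to 0.83) in CM versus IM, just short of the threshold, and 0.62 (0.36 to 0.89) in CMT versus IM. Between CMT and CM it was 0.06 (-0.18 to 0.30).

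**Figure D3:**
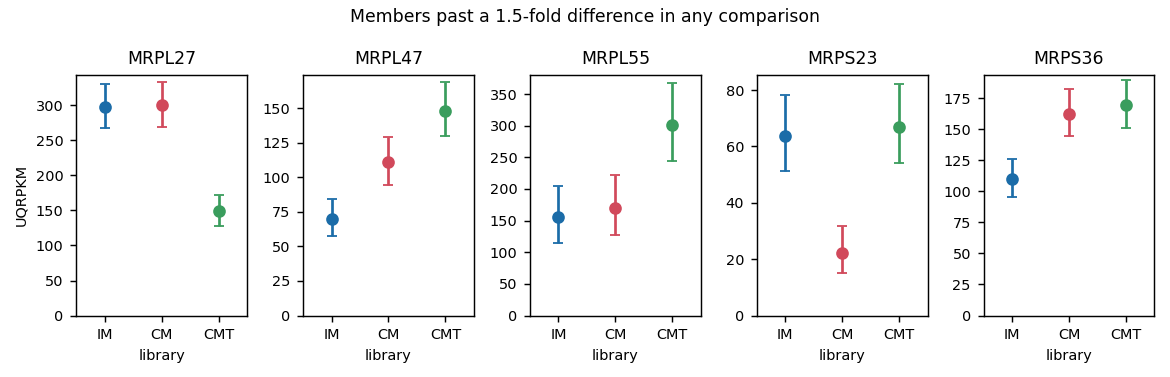
UQRPKM of MRPS23, MRPL47, MRPL27, MRPL55 and MRPS36 in the 3 libraries, with exact Poisson 95% intervals that cover counting error only. MRPS23 is low in CM at 22.2, MRPL27 is low in CMT at 149, MRPL55 is high in CMT at 301, and MRPL47 and MRPS36 are lowest in IM at 69.7 and 110.

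Some genes lay close to the threshold. In CM versus IM, MRPL47 was just inside at 1.59-fold, and MRPS36 at 1.48-fold and MRPS17 at 1.41-fold were just outside. In CMT versus CM, MRPL55 was just inside at 1.78-fold, with MRPS18A at 1.41-fold and MRPS14 at 0.710-fold outside. In CMT versus IM, MRPS36 was just inside at 1.54-fold and MRPS18A just outside at 1.45-fold.

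The genes nearest to these were the next highest and lowest ratios. MRPS17, a small subunit protein with a bacterial counterpart, stood at 290, 411 and 335 UQRPKM, a log2 ratio of 0.50 (0.29 to 0.71) in CM versus IM. MRPL38, a protein of the central protuberance, stood at 530.1, 435 and 392 UQRPKM, with ratios of -0.29 in CM versus IM, and -0.44 between CMT and IM. It was the second lowest of the family in both. MRPS27, which has pentatricopeptide repeats of the kind that bind RNA, stood at 210.1, 175 and 183 UQRPKM, a ratio of -0.26 in CM versus IM. MRPS14 stood at 261, 302 and 214 UQRPKM and was highest in CM, with a ratio of -0.49 in CMT versus CM. MRPL49 stood at 559, 554 and 424 UQRPKM, lower in CMT than in both other libraries, with a ratio of -0.40 in CMT versus IM.

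The large subunit genes had median log2 ratios of 0.09, -0.02 and 0.03 over 37 genes. The small subunit genes had 0.09, -0.07 and 0.01 over 23 genes. MRPS18A is found in the large subunit despite its name, and leaving it and MRPS36 out gave small subunit medians of 0.09, -0.11 and -0.03 over 21 genes. Genes of the bacterial class, as split by number, had medians of 0.06, -0.02 and 0.04, and genes of the mitochondrial class 0.11, -0.05 and 0.02. The medians of subunits and classes thus lay between -0.11 and 0.11, and no test of their differences was made.

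Genes were also grouped by where their proteins sit in the ribosome. Around the exit tunnel, MRPL17, MRPL22, MRPL24 and MRPL47 had ratios from -0.18 to 0.67 in CM versus IM and from -0.20 to 1.09 in CMT versus IM. In the central protuberance, MRPL38, MRPL40, MRPL46 and MRPL48 had ratios from -0.29 to 0.31 and from -0.44 to 0.29 in the same comparisons. MRPL38 was highest in IM, MRPL40 highest in CM and MRPL46 highest in CMT, at 268 UQRPKM against 230 in IM and 218 in CM. At the base of the stalk, MRPL10 stood at 622, 553 and 594 UQRPKM and MRPL11 at 249.9, 224 and 253 UQRPKM, both lowest in CM with ratios of -0.17 and -0.16 in CM versus IM. The interval of MRPL10 lay below 0, from -0.28 to -0.06, and that of MRPL11, from -0.38 to 0.07, included 0.

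The MRPS18 paralogs, which are variants of a single bacterial protein, differed among themselves. MRPS18A stood at 368, 379 and 533 UQRPKM, with log2 ratios of 0.49 (0.30 to 0.68) in CMT versus CM, and 0.53 (0.35 to 0.72) between CMT and IM. MRPS18B, in the small subunit, stood at 671, 767 and 784 UQRPKM. MRPS18C, also in the small subunit, stood at 155, 205 and 152 UQRPKM, with ratios of 0.40 (0.10 to 0.70) in CM versus IM, and -0.43 (-0.74 to -0.13) between CMT and CM. MRPS18A was thus highest in CMT and MRPS18C highest in CM, and none of the paralogs was changed at 1.5-fold. How the authors' counting treated reads that fit more than 1 paralog is not given in the sources used here.

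MRPL44, which has the fold of an RNA-cutting enzyme, stood at 244, 282 and 246 UQRPKM, with ratios of 0.21 in CM versus IM, and 0.01 between CMT and IM. MRPL33, a small protein of the large subunit, stood at 269.7, 353 and 378 UQRPKM, above IM in both castrated groups with ratios of 0.39 and 0.49. MRPS21 stood at 616, 647 and 842 UQRPKM, high in CMT with a ratio of 0.45 in CMT versus IM. None of these was changed at 1.5-fold.

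Of the proteins of the same ribosome that carry other names, 4 were found, in a list chosen with earlier results known, and 1 was changed. DAP3, a GTP-binding protein of the small subunit first known from cell death, stood at 69.6, 34.1 and 61.7 UQRPKM, on 221, 103 and 192 reads. It was low in CM, as MRPS23 was. The log2 ratio was -1.03 (-1.38 to -0.69) between CM and IM, 0.86 (0.51 to 1.22) between CMT and CM, and -0.17 (-0.46 to 0.11) between CMT and IM. PTCD3, a pentatricopeptide repeat protein of the small subunit, stood at 109, 89.9 and 121 UQRPKM, also lowest in CM, and was not changed at 1.5-fold. CHCHD1 stood at 274, 237 and 204 UQRPKM and GADD45GIP1 at 206, 198 and 191 UQRPKM, and neither was changed. In the directions of DAP3, 10.4% of all mRNA genes were changed to a lower level in CM versus IM, and 9.53% to a higher level in CMT versus CM.

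The mRNAs that this ribosome translates differed more between libraries than the genes of the ribosome. The 13 mitochondrially encoded mRNAs, which the deposited values class as ncRNA, summed to 636390, 972220 and 703171 UQRPKM. All 13 were higher in CM than in IM, with log2 ratios of at least 0.48 and a median of 0.64, and 8 of them were changed at 1.5-fold, namely ND3, ND4, ND4L, ND6, COX2, ATP6, ATP8 and CYTB. All 13 had a ratio below 0 in CMT versus CM, from -0.67 to -0.14 with a median of -0.51, and 2 of them, ND4 and ND4L, were changed. In CMT versus IM the ratios ran from -0.03 to 1.05 with a median of 0.17, and 1 was changed, ND6. In the same comparisons and directions, 8.38%, 9.97% and 8.81% of all mRNA genes were changed.

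COX3, a subunit of cytochrome c oxidase, had the highest level of these at 170840, 245307 and 166994 UQRPKM. It was high in CM, with ratios of 0.52 in CM versus IM, and -0.55 between CMT and CM. ATP6, a subunit of ATP synthase, stood at 79120, 139569 and 96324 UQRPKM, a ratio of 0.82 in CM versus IM. ND6 is encoded on the opposite strand to the others and was the lowest, at 109, 251 and 227 UQRPKM on 86, 188 and 175 reads. In CMT it was near its CM level, with a log2 ratio of -0.14 (-0.45 to 0.16) in CMT versus CM. ND1 was next at -0.21 (-0.23 to -0.19), and these 2 of the 13 were within 1.2-fold. ND6 differed 2.29-fold in CM versus IM and 2.08-fold in CMT versus IM. Whether the counting used strand is not given in the sources used here, so reads from ND6 and from RNA of the other strand cannot be told apart.

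The summed level of the mitochondrially encoded mRNAs was 25.4 times that of the mitochondrial ribosomal proteins in IM, 37.5 times in CM and 27.8 times in CMT. The difference lies almost wholly in the numerator, since the sum of the ribosomal proteins ranged from 25074 to 25907 UQRPKM. The rRNAs of the same ribosome, added after the files were seen, were also highest in CM but differed less. The 12S rRNA stood at 3244, 3285 and 2923 UQRPKM and the 16S rRNA at 20403, 22819 and 19867 UQRPKM, with ratios of 0.02 and 0.16 in CM versus IM. Against CM, the ratios of CMT were -0.17 (-0.23 to -0.11) and -0.20 (-0.22 to -0.18). Whether rRNA was removed before sequencing is not given in the sources used here, and its part in these values was not tested. The liver markers were also high in CM, with a median level of 1.06, 316.7 and 1.82 UQRPKM, and their part in the mitochondrial values was not tested.

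**Figure D4:**
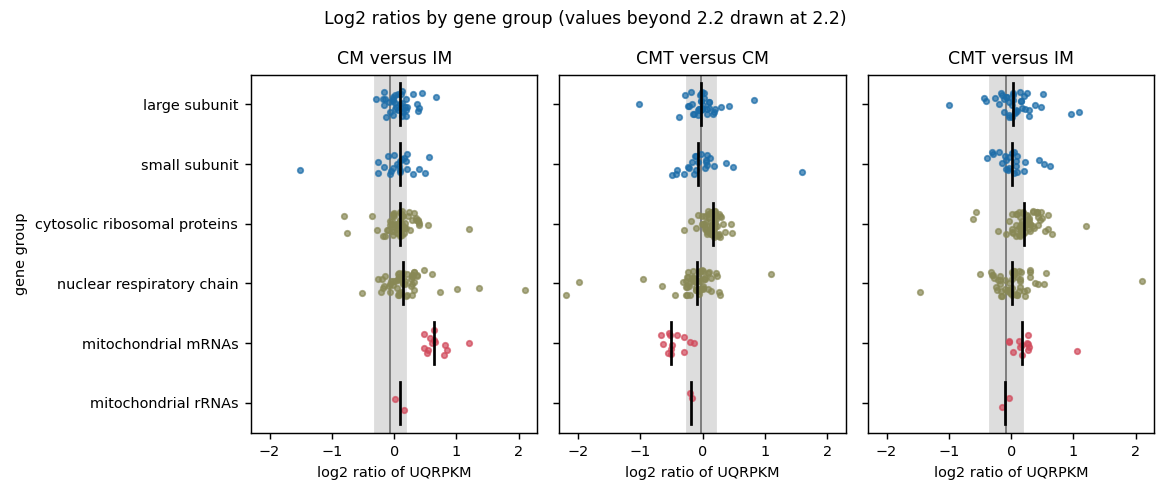
Log2 ratios of single genes in the mitochondrial ribosomal proteins and in related gene lists, for each of the 3 comparisons. The median of the mitochondrial ribosomal proteins stays near 0, at 0.09, -0.02 and 0.03, while that of the mitochondrially encoded mRNAs is 0.64, -0.51 and 0.17.

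Nuclear genes of the respiratory chain, whose products assemble with the mitochondrially made subunits, had medians of 0.14, -0.09 and 0.02 over 54 genes. Changed to a higher level were 5, 1 and 1 of them, and to a lower level 0, 4 and 1. For all mRNA genes the shares were 8.38%, 9.53% and 8.81% higher and 10.4%, 9.97% and 11.9% lower. NDUFA6, a subunit of complex I, stood at 126, 325 and 45.8 UQRPKM, and NDUFC2 of the same complex at 241, 368 and 235. Among ATP synthase genes, ATP5G2 stood at 381, 1627 and 409 UQRPKM and ATP5J2 at 1177, 1957 and 1011. These 4 genes were highest in CM, whereas ATP5J stood at 73.7, 148 and 317 UQRPKM and was highest in CMT, with a log2 ratio of 2.10 (1.64 to 2.59) in CMT versus IM. The cytosolic ribosomal proteins had medians of 0.09, 0.16 and 0.21 over 60 genes. Of these 1, 0 and 4 were changed to a higher level and 2, 0 and 1 to a lower level. RPL31 stood at 5087, 11692 and 11764 UQRPKM and was higher in both castrated groups, while RPL15 was lower in both, at 1658, 983 and 1080 UQRPKM. RPS16 was changed to a lower level in CM versus IM, and RPS27, RPS27A and RPL27A to a higher level in CMT versus IM. In CMT versus IM, where the median of all mRNA genes was -0.08, the cytosolic set thus lay further above it than the mitochondrial set.

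The factors that run translation on the mitochondrial ribosome had medians of 0.17, 0.08 and 0.13 over 11, 11 and 12 genes tested, and 12 of 13 were above 0 in at least 1 library. TUFM, the elongation factor that brings tRNA to the ribosome, had the highest level at 1071, 879 and 813 UQRPKM. MTIF2, the initiation factor, stood at 33.7, 48.5 and 54.7 UQRPKM and was the only factor changed, at a log2 ratio of 0.70 (0.38 to 1.02) in CMT versus IM. No factor was changed in the other comparisons. Of all mRNA genes, 8.38%, 9.53% and 8.81% were changed to a higher level and 10.4%, 9.97% and 11.9% to a lower level.

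Genes that assemble the ribosome or modify its rRNA had medians of -0.09, -0.03 and -0.12 over 19 genes. RPUSD4, which modifies uridines of the 16S rRNA, stood at 20.8, 62.0 and 17.1 UQRPKM, on 56, 159 and 45 reads. It was high in CM, with log2 ratios of 1.57 (1.13 to 2.04) in CM versus IM, and -1.86 (-2.37 to -1.38) between CMT and CM. TFB1M, the methyltransferase of the 12S rRNA, stood at 112, 74.2 and 70.3 UQRPKM, lower in both castrated groups with ratios of -0.59 and -0.67 against IM. In all, 2, 0 and 2 of 19 genes were changed to a higher level, where all mRNA genes had 8.38%, 9.53% and 8.81%. Changed to a lower level were 1, 2 and 3, where all mRNA genes had 10.4%, 9.97% and 11.9%. The others were METTL15, GTPBP10, MPV17L2 and TRMT61B, the last on 14 reads or fewer in each library.

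Enzymes that load amino acids onto mitochondrial tRNAs had medians of -0.04, -0.01 and -0.05 over 17 genes. FARS2 stood at 79.8, 75.9 and 50.1 UQRPKM and was changed to a lower level in CMT versus CM and CMT versus IM, with ratios of -0.60 and -0.67. RARS2 was changed to a higher level in every comparison on 5, 10 and 20 reads, and its interval included 0 except between CMT and IM. Genes of mitochondrial transcription and RNA handling had medians of 0.06, 0.07 and -0.11 over 14 genes. PNPT1, an RNA-degrading enzyme, was the only one changed, at -0.79 in CMT versus CM on 52 and 31 reads. LRPPRC, which stabilises mitochondrial mRNAs, stood at 119, 134 and 148 UQRPKM and was not changed. Of the 17 tRNA enzymes, 1, 1 and 1 were changed to a higher level and 0, 1 and 1 to a lower level. For both lists, the shares of all mRNA genes were 8.38%, 9.53% and 8.81% higher and 10.4%, 9.97% and 11.9% lower.

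Genes of mitochondrial DNA replication had medians of 0.03, -0.02 and -0.05. Of 11, 10 and 10 genes tested, 1, 0 and 0 were changed to a higher level and 1, 0 and 1 to a lower level. All mRNA genes had 8.38%, 9.53% and 8.81% higher and 10.4%, 9.97% and 11.9% lower. POLG, the DNA polymerase of mitochondria, stood at 239, 213 and 191 UQRPKM and was not changed. TOP1MT and DNA2, the genes changed, had at most 22 reads in a library.

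Regulators of mitochondrial biogenesis had medians of -0.01, -0.25 and -0.04 over 12 genes. Changed to a higher level were 2, 1 and 3 of them, beside 8.38%, 9.53% and 8.81% of all mRNA genes, and to a lower level 0, 1 and 2, beside 10.4%, 9.97% and 11.9%. PPARA, a nuclear receptor for fatty acids, stood at 37.1, 79.4 and 58.7 UQRPKM. It was above IM in both castrated groups, with a fold of 2.14 in CM versus IM, and 1.58 between CMT and IM. ESRRG was changed to a higher level in CM versus IM on 46 and 84 reads and to a lower level in CMT versus CM. PPARA is also a gene of liver, and the median liver marker was at 316.7 UQRPKM in CM against 1.06 in IM. Their part in its value was not tested.

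GABPA, the DNA-binding subunit of nuclear respiratory factor 2, which is known to act on nuclear genes of mitochondrial proteins, stood at 15.2, 12.6 and 22.9 UQRPKM. It was highest in CMT, with ratios of 0.86 in CMT versus CM, and 0.59 between CMT and IM. The deacetylases of the list were changed in opposite directions in CMT versus IM, with SIRT1 at 53.0, 72.6 and 83.5 UQRPKM and SIRT3, the mitochondrial one, at 201, 134 and 131 UQRPKM. PPRC1, a coactivator, stood at 69.0, 54.1 and 45.6 UQRPKM, lowest in CMT with a ratio of -0.60 against IM.

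Mitochondrial proteases and chaperones had medians of -0.05, 0.13 and -0.04 over 10 genes. LONP1, the matrix protease, stood at 587, 550.4 and 344 UQRPKM, low in CMT with ratios of -0.68 (-0.77 to -0.59) in CMT versus CM, and -0.77 (-0.86 to -0.68) between CMT and IM. PHB, a scaffold of the inner membrane, stood at 748, 460.1 and 572 UQRPKM and was changed to a lower level in CM versus IM, at -0.70. OMA1 was changed to a higher level in CMT in both of its comparisons, at 25.4 UQRPKM against 16.6 in IM and 16.4 in CM. The chaperones HSPE1 and HSPD1 stood at 3115, 3695 and 4072 UQRPKM and at 1645, 2182 and 2169 UQRPKM, and neither was changed. In all, 0, 1 and 1 of the 10 genes were changed to a higher level, where all mRNA genes had 8.38%, 9.53% and 8.81%. Changed to a lower level were 1, 1 and 1, where all mRNA genes had 10.4%, 9.97% and 11.9%.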

How the data were processed

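The authors mapped single-end reads of the Ion Proton instrument to Sscrofa 10.2 with MapSplice, counted reads on genes and deposited modified RPKM values, UQRPKM, for 3 libraries of pooled RNA. The counting tool and the handling of reads that fit several genes are not given in the sources used here. From the deposited values, whole reads were recovered for 100% of 20838 genes above 0, within a relative tolerance of 1e-08, with upper quartiles of 149, 142 and 146 reads for IM, CM and CMT. The fewest reads that fit were taken, so some may be too low by a common factor. UQRPKM gave all main results. Reads gave intervals, depth and the exact binomial test, with adjusted p (Benjamini-Hochberg, over mRNA genes with reads) called below 0.05. Steps were tested on simulated data. Python 3.11.15 with scipy 1.17.1, numpy 2.4.6, pandas 2.3.3 and matplotlib 3.10.9 was used.

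The members and lists were chosen with earlier results of these data known. Genes named are those changed in any comparison, the 3 highest and 3 lowest ratios per comparison among members with at least 30 reads, the 5 highest and 5 lowest levels, those listed at 0, some named for their role, and, in other lists, the changed genes and up to 3 with the highest levels, while marker lists have examples only. Some further genes were named after their values were seen. These are MRPL10, MRPL11, MRPL33, MRPL46, MRPL48 and MRPS21, and LRPPRC, POLG and ND1 among the other lists. Alternatives were 3 other scalings, a pseudocount of 1 UQRPKM, no filter, at least 30 reads, a fold of 2 and the exact test with and without the fold. The minimum of 90 reads and the LOC genes were added after seeing the data. With 1 library per group, no test between groups was possible.

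Gene positions and sequences are not printed, because the reference used here holds gene names of Sscrofa11.1 only.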

Additional observations from a re-analysis of the deposited data

How the results depend on the processing

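No paired analysis was possible because each group is 1 library. Of the members, a fold of 2 left 1 changed in CM versus IM and 2 between CMT and IM, and equal reads on mRNA genes gave 7 in CMT versus IM, where 4 were reported. The exact binomial test at any fold called 16 of 60 members between CM and IM, 15 between CMT and CM, and 18 between CMT and IM, against 2, 3 and 4. In the same order, it called 5182, 4605 and 5652 of the 16836 mRNA genes above 0 in at least 1 library. By these counts the family lay nearer to all mRNA genes than under the fold rule. These settings lower or raise the threshold or shift all ratios by construction. Under the other scalings the median ratio of the members was 0.11 to 0.15 between CM and IM, -0.0035 to 0.03 between CMT and CM, where its sign turned under 2 of them, and 0.08 to 0.15 between CMT and IM.

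Of all mRNA genes, 2657, 2749 and 2936 were changed in the same order. A fold of 2 gave 1139, 1225 and 1162, the exact test with the fold 1432, 1498 and 1691, the exact test alone 5182, 4605 and 5652, and at least 90 reads 1072, 1173 and 1324. In CMT versus IM, 1246 were higher and 1690 lower, but 1626 and 1239 with equal reads on mRNA genes, and 1501 and 1353 with median-of-ratios scaling. Differences between pigs within a pool were not measured.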
